A study of Mus musculus with 4 samples.

Results

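Glucose transport and glycolysis were described through 10 genes, Slc2a1, Slc2a3, Hk1, Hk2, Pfkp, Aldoa, Gapdh, Pgk1, Pkm and Ldha, of 35275 genes measured by RNA sequencing in DNT, the double-negative regulatory T cells of the mouse. The genes were taken by symbol, each matched 1 Ensembl gene ID, and all 10 passed the filter on low values (a mean of at least 1 RPKM over the libraries), as did 11625 genes in all. RPKM is a read number scaled to transcript length and to library size. DNT are αβ T cells without CD4 or CD8 that can curb immune responses. By their labels, 2 libraries came from DNT of OX40-knockout mice and 2 from DNT of wild-type mice, all on the C57BL/6 strain. In both groups the DNT had been converted in the same way from naive CD4 T cells and were sorted as CD3+TCRαβ+NK-CD4-CD8-. OX40, encoded by Tnfrsf4, is a costimulatory receptor of activated T cells. Age, sex and number of animals are not in the labels, nor is whether libraries of 1 group stem from different mice or cultures, so the p-values rest on a spread between libraries that may be purely technical.

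Glycolysis splits glucose into pyruvate in the cytosol and yields ATP and building blocks, and lactate dehydrogenase turns the pyruvate into lactate, which restores the NAD+ that the pathway uses. Several steps can be run by alternative enzymes from separate genes, and which one a tissue uses sets how the step is regulated. T cells that are activated take up much more glucose and send most of it to lactate, a shift that depends on the transcription factors MYC and HIF-1.

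All 4 libraries had T cell transcripts, with the summed level of 6 T cell receptor and CD3 genes between 2106 and 2413 RPKM. Library totals were 22220888 and 22571186 reads for OX40-knockout 1 and 2, and 23215528 and 24395743 reads for wild-type 1 and 2. Tnfrsf4 was still read in the libraries labelled OX40-knockout, at 12.1 and 9.38 RPKM, against 18.2 and 12.3 RPKM in wild-type. Which exons the knockout lacks is not in the labels, so the summed value of Tnfrsf4 is a weak check of them. OX40-knockout 1 stood apart from the rest. Between it and OX40-knockout 2, 4.97% of the tested genes differed 2-fold or more in RPKM + 1. The share was 4.43% between OX40-knockout 1 and wild-type 2, and 2.49% between OX40-knockout 1 and wild-type 1, its nearest library. Among the rest it was 1.14% between the wild-type libraries, 1.64% between OX40-knockout 2 and wild-type 1, and 0.499% between OX40-knockout 2 and wild-type 2. Defining markers of other cells also differed among libraries. The NK cell gene Ncr1 was at 0.183 and 7.49 RPKM in OX40-knockout 1 and 2, and at 0.408 and 7.93 RPKM in wild-type 1 and 2. The sum of 5 myeloid and dendritic cell genes was 2.91 and 7.23 RPKM in the knockout libraries and 3.9 and 9.61 RPKM in wild-type. That of 3 B cell genes stayed between 0.609 and 0.951 RPKM, and the B cell gene Ms4a1 was listed at 0 in every library.

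Sequences around the start sites are shown for Hk2, Pgk1 and Ldha, the members whose RefSeq promoter windows (250 bases before to 50 bases after the start, build GRCm38.p6) hold at least 2 copies of ACGTG before the start. ACGTG is the core that HIF-1 binds. It was searched on both strands, so it is also read as CACGT, and the palindrome CACGTG, an E-box of the kind MYC binds, holds it on both strands. Capitals mark these letters.
Hk2, chr6:82774405-82774704, minus strand: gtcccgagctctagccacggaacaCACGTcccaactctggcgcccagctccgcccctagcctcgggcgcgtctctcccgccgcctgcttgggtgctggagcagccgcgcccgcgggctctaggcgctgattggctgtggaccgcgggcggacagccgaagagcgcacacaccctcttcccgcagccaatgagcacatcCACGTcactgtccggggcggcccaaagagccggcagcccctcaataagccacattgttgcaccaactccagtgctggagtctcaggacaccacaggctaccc
Pgk1, chrX:106186850-106187149, plus strand: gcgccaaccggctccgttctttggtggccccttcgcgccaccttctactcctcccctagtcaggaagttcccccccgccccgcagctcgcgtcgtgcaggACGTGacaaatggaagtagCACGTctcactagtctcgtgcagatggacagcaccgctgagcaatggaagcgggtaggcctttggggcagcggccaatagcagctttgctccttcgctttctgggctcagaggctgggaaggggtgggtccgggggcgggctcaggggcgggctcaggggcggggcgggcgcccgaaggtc
Ldha, chr7:46845554-46845853, plus strand: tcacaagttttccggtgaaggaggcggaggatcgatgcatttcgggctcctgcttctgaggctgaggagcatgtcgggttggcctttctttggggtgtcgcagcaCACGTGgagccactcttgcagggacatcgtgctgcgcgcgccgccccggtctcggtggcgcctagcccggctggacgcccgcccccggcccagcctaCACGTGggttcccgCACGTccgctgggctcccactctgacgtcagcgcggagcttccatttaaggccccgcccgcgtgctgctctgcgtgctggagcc
Counted from the start site, the copies begin at -226 and -52 in the Hk2 window and at -150 and -131 in that of Pgk1. Ldha holds the E-box at -145 and -48 and a single core at -34. Of the 9 members in the RefSeq table, 8 hold the core in at least 1 window (Slc2a1, Hk1, Hk2, Aldoa, Gapdh, Pgk1, Pkm and Ldha), against 21.8% of the 27025 genes with a window. Several members have more than 1 window, which raises their chance of a match. Counted by window, the core is in 9 of the 14 member windows and in 19.6% of all 32851, and 2 of those 9 overlap. At least 2 copies before the start, an E-box counting as 2, are in 6.98% of all windows. Slc2a3 has no window, and the window of Pfkp holds no core. The E-box is in 1 of the 9 members, Ldha, and in 8.09% of all genes. A match is a description of the letters and does not show that a factor binds there.

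The members spanned a wide range of levels, lowest for the genes that take up and trap glucose and highest from aldolase onwards. The summed RPKM of the 10 genes made up 3.08% and 2.38% of the whole in OX40-knockout 1 and 2, and 2.64% and 2.37% in wild-type 1 and 2. Gapdh alone was 40% and 36% of that sum in the knockout libraries and 35.2% and 35.1% in wild-type. By mean over the 4 libraries, it ranked 5 among all genes, Ldha 13, Aldoa 15, Pkm 33 and Pgk1 44.

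**Figure D1:**
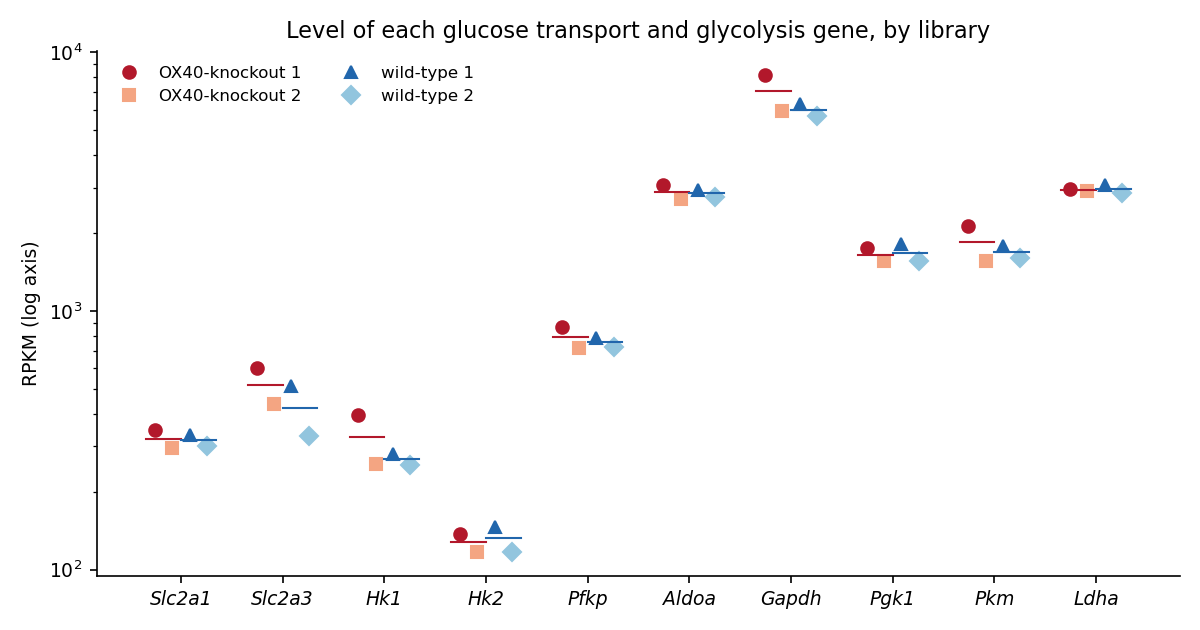
RPKM of each of the 10 genes on a log axis, 1 point per library, where short bars are group means (n = 2 each). Gapdh is highest, between 5685 and 8203 RPKM, and Hk2 lowest, between 117 and 147 RPKM, and the points of the 2 groups overlap for every gene.

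Glucose enters through facilitative transporters. Slc2a1, which encodes the basal transporter GLUT1, was at 346 and 296 RPKM in OX40-knockout 1 and 2, and at 333 and 302 RPKM in wild-type 1 and 2. Slc2a3 encodes GLUT3, a transporter of high affinity known from neurons and activated T cells. It was at 604 and 435 RPKM in the knockout libraries and at 511 and 329.6 RPKM in wild-type. Slc2a3 was higher in both libraries of replicate number 1 than in both of replicate number 2, and the groups overlapped. It had the widest range of the 10 genes, 1.83-fold between the highest and the lowest library. Slc2a3 was above Slc2a1 within each library, by 1.75-fold and 1.47-fold in OX40-knockout 1 and 2, and by 1.53-fold and 1.09-fold in wild-type 1 and 2. The other transporters of the family that were read were far lower, with Slc2a8 between 8.73 and 19.6 RPKM, Slc2a6 between 3.07 and 7.85 RPKM and Slc2a9 between 3.99 and 7.29 RPKM. The insulin-responsive Slc2a4 did not exceed 0.101 RPKM, and Slc2a12 and Slc2a13 were listed at 0 in all 4 libraries.

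Hexokinases phosphorylate glucose and hold it in the cell. Hk1, which encodes the form found in most tissues, was at 397 and 256 RPKM in OX40-knockout 1 and 2, and at 281 and 254 RPKM in wild-type 1 and 2. OX40-knockout 1 lay 50.9% above the mean of the other 3 libraries, which stayed close together. Hk2, the inducible form, was at 138 and 117 RPKM in the knockout libraries and at 147 and 117 RPKM in wild-type. Its levels in OX40-knockout 2 and wild-type 2 did not differ at this precision, and the counting error was 1.27% and 1.22% there. Hk1 made up 73.9% and 68.2% of the summed RPKM of the 5 hexokinase genes in the knockout libraries and 65.4% and 67.7% in wild-type. Hk3 did not exceed 2.72 RPKM and Hkdc1 0.0775 RPKM.

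Phosphofructokinase commits the sugar to glycolysis. Pfkp, the platelet-type gene, was at 871 and 718 RPKM in OX40-knockout 1 and 2, and at 785 and 729 RPKM in wild-type 1 and 2. It held 73.5% and 74.7% of the summed RPKM of the step in the knockout libraries and 75.3% and 73.8% in wild-type. Pfkl, the liver type, was at 296 and 234 RPKM in the knockout libraries and 246 and 247 RPKM in wild-type, and Pfkm, the muscle type, lay between 9.43 and 18.1 RPKM. Between hexokinase and phosphofructokinase stands glucose-6-phosphate isomerase, whose gene Gpi1 was at 1188 and 942 RPKM in the knockout libraries and 1123 and 1036 RPKM in wild-type. Of the genes for enzymes that make or remove the activator fructose-2,6-bisphosphate, Pfkfb3 was highest, between 45.3 and 57.1 RPKM. Pfkfb4 was at 8.1 and 5.74 RPKM in the knockout libraries and at 5.29 and 5.09 RPKM in wild-type.

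Aldolase splits the 6-carbon sugar. Aldoa, the muscle-type gene that is also used by most dividing cells, was at 3081 and 2712 RPKM in OX40-knockout 1 and 2, and at 2948 and 2757 RPKM in wild-type 1 and 2. The brain-type Aldoc lay between 125 and 143 RPKM, which left Aldoa between 95.5% and 95.6% of the step in every library. Tpi1, which encodes triosephosphate isomerase, was at 1755 and 1516 RPKM in the knockout libraries and 1665 and 1525 RPKM in wild-type.

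Gapdh encodes the dehydrogenase that reduces NAD+ and adds phosphate, and its protein also binds RNA in T cells. It was at 8203 and 5939 RPKM in OX40-knockout 1 and 2, and at 6329 and 5685 RPKM in wild-type 1 and 2. OX40-knockout 1 stood 37.1% above the mean of the rest. Pgk1 encodes phosphoglycerate kinase, the first ATP-yielding enzyme. It was at 1746 and 1558 RPKM in the knockout libraries and at 1809 and 1556 RPKM in wild-type. The germ cell counterparts were nearly silent: Gapdhs lay between 2.28 and 4.32 RPKM, and Pgk2 was listed at 0 in all libraries, where 3 reads would be 0.083 and 0.0817 RPKM in the knockout and 0.0795 and 0.0756 RPKM in wild-type libraries. Downstream, Pgam1 (phosphoglycerate mutase) was between 479.8 and 563 RPKM, and Eno1 (enolase) between 4498 and 4942 RPKM, the second highest gene of the chain.

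Pkm encodes pyruvate kinase, the second ATP-yielding enzyme, in splice forms M1 and M2 that a value per gene does not separate. It was at 2139 and 1555 RPKM in OX40-knockout 1 and 2, and at 1786 and 1603 RPKM in wild-type 1 and 2. OX40-knockout 2 was the lowest library and OX40-knockout 1 the highest, so the knockout libraries enclosed those of wild-type. Pklr, the pyruvate kinase of liver and red cells, was listed at 0 in every library. Ldha encodes the lactate dehydrogenase subunit that favours lactate production. It was at 2972 and 2902 RPKM in the knockout libraries and at 3065 and 2856 RPKM in wild-type, the narrowest range of the 10 genes, 1.07-fold. Ldhb, the heart-type subunit, lay between 1.96 and 4.49 RPKM, so Ldha was 662-fold to 1480-fold above it and made up between 99.8% and 99.9% of the step. The proton-linked lactate exporter Slc16a3 (MCT4) was at 415 and 299 RPKM in the knockout and 332 and 303 RPKM in the wild-type libraries, between 11- and 20-fold above Slc16a1 (MCT1), or 3.91- to 7.12-fold with reads divided by the longest coding transcript.

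In the order of mean levels, Gapdh was above Ldha in all 4 libraries with ranges apart. The ranges of Ldha and Aldoa overlapped, as did those of Pkm and Pgk1, Slc2a3 and Slc2a1, and Slc2a1 and Hk1. Within libraries, Slc2a3 was above Slc2a1 in 4 of 4, Ldha above Aldoa and Slc2a1 above Hk1 in 3 of 4, and Pkm above Pgk1 in 2 of 4. Aldoa was above Pkm, Pgk1 above Pfkp, Pfkp above Slc2a3 and Hk1 above Hk2 with ranges apart. Levels of different genes depend on the length by which reads were divided. Whole numbers of reads and a whole length that gave the deposited values were found for all 10 genes. That length was the rounded mean over all GENCODE transcripts for Slc2a3 (1729 bases), Hk1 (1297), Hk2 (2351) and Pgk1 (1440). For Pkm it was 2432 bases, the full length of the longest coding transcript. Hk1 has 20 annotated transcripts, and its longest coding one has 4278 bases. A length 2 times as great would also give whole reads for every member, though for Pkm it lay beyond the lengths searched. The length nearest the GENCODE mean was taken. The choice is least certain for Gapdh, where 751 and 1502 bases stand against a mean of 946.

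Divided by the longest coding transcript instead, an alternative chosen after the data were seen, the mean levels became 3458 RPKM for Gapdh, 1993 for Aldoa, 1771 for Pkm, 1516 for Ldha, 1316 for Pgk1, 313 for Pfkp, 205 for Slc2a3, 128 for Slc2a1, 90 for Hk1 and 55.4 for Hk2. These values would be 2 times as high with the greater length, for any member, Gapdh being the least certain. As taken, Ldha moved from place 2 to place 4 of the 10, and the other orders held apart from the places it gave up. The lead of Hk1 over Hk2 shrank to 2.05-fold and 1.55-fold in OX40-knockout 1 and 2, and to 1.36-fold and 1.54-fold in wild-type 1 and 2. With the deposited lengths it was 2.88-fold and 2.18-fold in the knockout and 1.91-fold and 2.16-fold in the wild-type libraries. Slc2a3 over Slc2a1, Pfkp over Pfkl and Aldoa over Aldoc kept the same leading gene with either length.

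**Figure D2:**
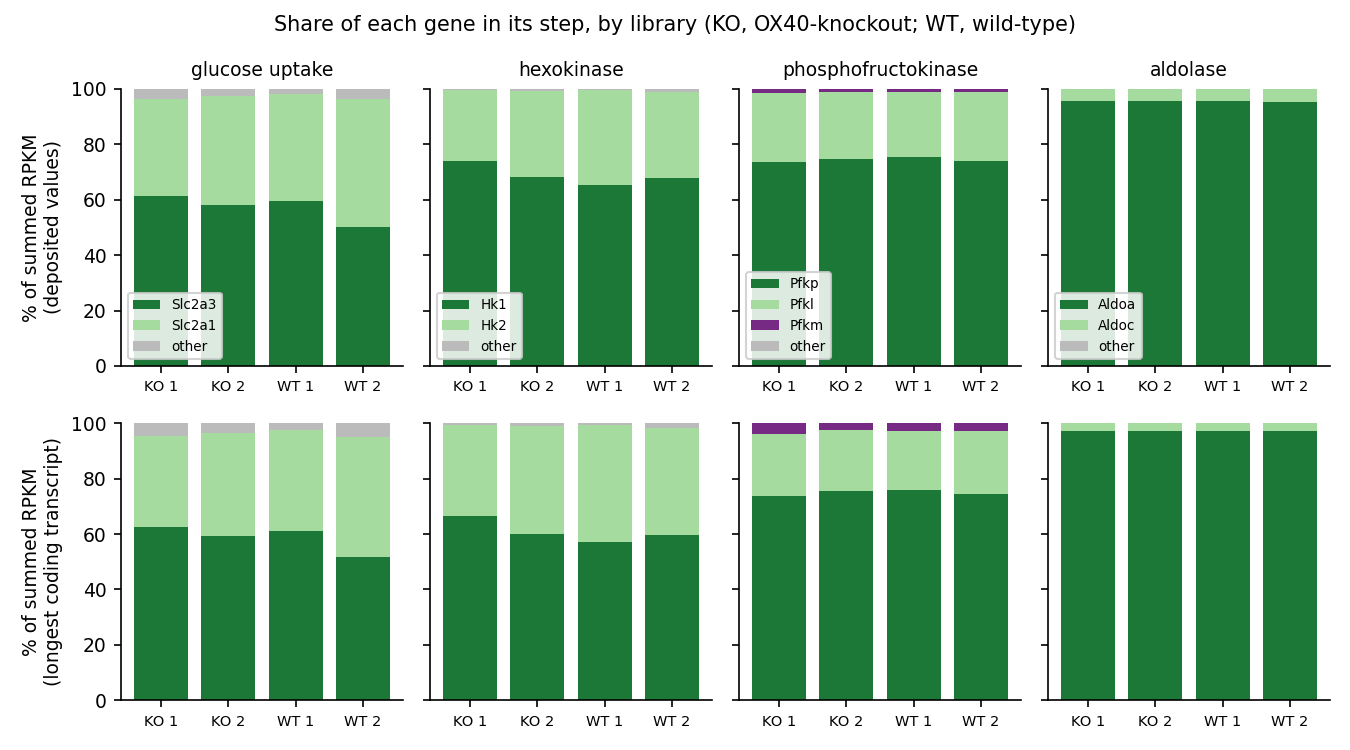
Percent of the summed RPKM of each step held by each gene, 1 stacked bar per library (KO, OX40-knockout; WT, wild-type), with the deposited lengths above and the longest coding transcript below. Hk1 holds between 65.4% and 73.9% of hexokinase with the deposited lengths and between 57.2% and 66.7% with the longest transcript, while Aldoa stays above 95% in all bars.

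Reads can also fit processed pseudogenes and retrogenes of these enzymes. Those looked up, a short list of named ones, were low or at 0, and other copies in the genome were not read. Pgam1-ps2 was the highest of these, between 2.36 and 4.28 RPKM, and Pgk1-rs7 lay between 0.876 and 1.22 RPKM. Ldha-ps2 did not exceed 0.0776 RPKM, and Gapdh-ps14, Gapdh-ps15, Ldha-ps and Aldoart1 were listed at 0. The antisense gene Hk1os lay between 1.21 and 1.86 RPKM. Neither the treatment of reads that fit several places nor that of strand is known here.

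The comparison asked whether the pathway differs between the libraries labelled OX40-knockout and those labelled wild-type. No member passed: 0 of 10 had an adjusted p under 0.05 in limma's moderated test with Benjamini-Hochberg adjustment over 11625 genes, where 0% of all tested genes did. At an unadjusted p under 0.05 there were 0 of 10 members and 1.39% of all genes (162). The groups overlapped in all 10 genes, while both knockout libraries lay above both wild-type libraries for 8.66% of all tested genes and below them for 17.8%. The largest differences were those of Slc2a3, Hk1 and Gapdh. Slc2a3 averaged 519.6 ± 119 RPKM in the knockout and 420.3 ± 128 RPKM in wild-type (SD, n = 2 each), a log2 change of 0.32 with a standard error of 0.27 (limma adjusted p = 0.975). Hk1 averaged 327 ± 100.2 RPKM against 267 ± 19.4 RPKM, a log2 change of 0.26 (SE 0.23, limma adjusted p = 0.975). Gapdh averaged 7071 ± 1601 RPKM against 6007 ± 455 RPKM, a log2 change of 0.22 (SE 0.22, limma adjusted p = 0.975).

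The other changes were smaller than their errors. The log2 change was 0.11 for Pkm (SE 0.2), 0.06 for Pfkp (SE 0.14), 0.02 for Aldoa (SE 0.15), 0.01 for Slc2a1 (SE 0.13), -0.01 for Ldha (SE 0.14), -0.02 for Pgk1 (SE 0.15) and -0.04 for Hk2 (SE 0.16). The sign of Slc2a1 and Aldoa turned with quantile normalization (-0.01 and -0.07), and that of Ldha with median-of-ratios scaling (0.01). Without OX40-knockout 1 every member but Slc2a3 was lower, with log2 changes of -0.06 for Hk1, -0.01 for Gapdh and -0.12 for Pkm, and the change of Slc2a3 was 0.09. Without OX40-knockout 2, which leaves OX40-knockout 1 alone against wild-type, they were 0.57 for Hk1 (limma adjusted p = 0.0615), 0.45 for Gapdh and 0.34 for Pkm, and 3832 of all tested genes then had an unadjusted p under 0.05 in limma. In bulk RNA, a different share of cells of a type and a different amount of RNA per cell cannot be told apart.

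Isoform shares differed between groups by about the larger SD within a group or less, with those of Hk1 and Hk2 slightly above it. Hk1 averaged 71 ± 4.08% of hexokinase in the knockout and 66.6 ± 1.63% in wild-type, a difference of 4.48 percentage points, which was 1.6 points without OX40-knockout 1. Its groups did not overlap, though OX40-knockout 2 (68.2%) and wild-type 2 (67.7%) lay close. Hk2 averaged 28.5 ± 3.96% against 32.75 ± 2.01%, a difference of -4.29 points, also without overlap (31.26% in OX40-knockout 2 and 31.34% in wild-type 2). The shares of Slc2a1, Slc2a3, Pfkp and Aldoa overlapped between groups. Slc2a3 averaged 59.7 ± 2.43% of the 11 listed glucose transporters against 54.8 ± 6.46%, 4.85 points apart, and 0.288 points apart without wild-type 2. Pfkp averaged 74.1 ± 0.862% against 74.6 ± 1.06%, and Aldoa 95.6 ± 0.0395% against 95.5 ± 0.104% (SD, n = 2 each). The smallest two-sided p of an exact permutation test is 1 in 3 with such groups, so none was run.

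Levels of the members moved with the library number. All 10 members were higher in library 1 than in library 2 of both groups, which held for 23.6% of all tested genes. After the GC correction it held for 8 members (not Aldoa and Ldha) and 31.8% of all genes, and after quantile normalization for 7 (not Aldoa, Gapdh and Ldha) and 27.9%, counts added after the data were seen. The labels do not say that equal numbers mark a shared day or animal. Within number 1, knockout over wild-type was 1.18-fold for Slc2a3, 1.41-fold for Hk1, 1.3-fold for Gapdh and 1.2-fold for Pkm. Within number 2 it was 1.32-fold for Slc2a3, 1.01-fold for Hk1, 1.04-fold for Gapdh and 0.97-fold for Pkm. These 4 had the largest log2 changes of the members, which favours folds above 1 here. For Hk1 within number 2, at 255.8 against 253.5 RPKM, the difference was smaller than the counting error of either library (1.16% and 1.12%). The share of all genes above 1-fold under both numbers was not computed, so no count of members is read from these folds. For Slc2a3, OX40-knockout 2 (435 RPKM) lay below wild-type 1 (511 RPKM), and without wild-type 2 its log2 change was 0.005. The NK gene Ncr1 and the sums of the myeloid, B cell, and stromal and epithelial genes ran the opposite way, lower in both libraries 1. Cd3e, Cd3d, Cd3g and Trac ran the same way as the members, while Trbc1 and Trbc2 did not. The 6 T cell genes summed to 2238 and 2157 RPKM in the knockout and 2413 and 2106 RPKM in wild-type. Those of 5 erythroid genes summed to 5.54 and 2.57 RPKM in the knockout and 3.74 and 1.57 RPKM in wild-type. The part of these genes in the result was not tested. Over the whole NK cell list of 3 genes the sum was 63 and 204 RPKM in OX40-knockout 1 and 2, against 130.3 and 209.5 RPKM in wild-type 1 and 2. The sum of Cd4, Cd8a and Cd8b1 was 31.1 and 13.1 RPKM in the knockout and 14.7 and 14.9 RPKM in wild-type, highest in OX40-knockout 1, and its part was not tested either.

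OX40-knockout 1 was the highest library for 7 of the 10 members and for 36.9% of all genes. It was lowest for none of them and for 42.7% of all genes. Its deviation from the 4-library mean of log2(RPKM + 1) ran from 0.01 for Ldha and 0.07 for Pgk1 to 0.4 for Slc2a3 and 0.45 for Hk1. GC content moved with this library. With the tested genes in 5 equal bins of GC content, its median deviation was -0.19 in the lowest bin (median 42.2% GC) and 0.21 in the highest (57.6% GC). Members had between 48.7% (Pgk1) and 57.3% GC (Aldoa). After correction of the GC trend, OX40-knockout 1 deviated by 0.44 for Slc2a3, 0.36 for Hk1, 0.23 for Gapdh and 0.17 for Pkm, and by -0.08 for Aldoa and -0.01 for Ldha. The deviation of Slc2a3 was thus slightly larger after the correction, those of Hk1, Gapdh and Pkm were smaller but still above 0, and that of Aldoa was below 0.

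**Figure D3:**
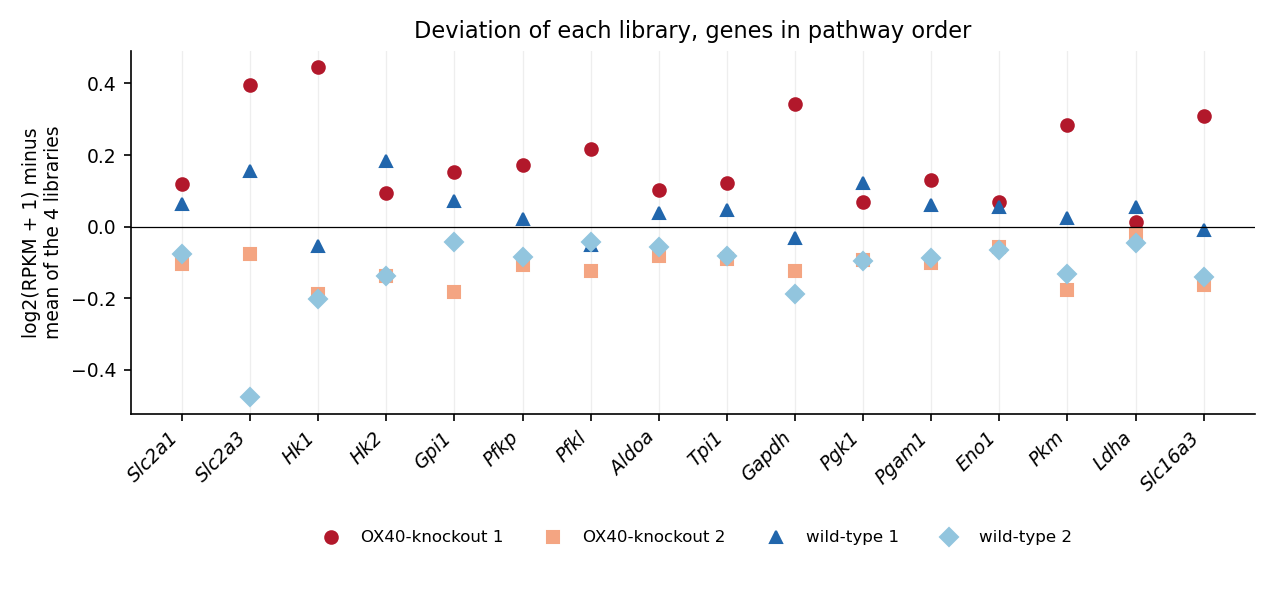
Deviation of log2(RPKM + 1) from the mean of the 4 libraries, 1 point per library, in pathway order. Shown are the members, the leading genes of the other steps (Gpi1, Tpi1, Pgam1, Eno1), the second phosphofructokinase gene Pfkl and the exporter Slc16a3. Wild-type 2 is lowest for Slc2a3 at -0.48, OX40-knockout 1 is highest for Hk1 at 0.45, and for Ldha the 4 points lie between -0.05 and 0.06.

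The rest of the chain was read from fixed lists of genes for each step, which are not complete. They held 46 genes with the members, of which 31 were tested. Of the 21 tested genes that are no members, 0 passed in either direction, 11 had a positive log2 change and 10 a negative one, and the median was 0.01. Over all tested genes the median was -0.03 and 43.4% were positive, the share to read beside the counts of higher and lower genes below, which also go by the sign of the log2 change. Both knockout libraries were above both wild-type libraries in 1 of the 21 (Pfkfb4) and below in 3 (Pfkfb1, Pfkfb2 and Eno3, picked out here after their values were seen), 4.76% and 14.3%, against 8.66% and 17.8% of all tested genes. In 10 of the 21 (47.6%, against 23.6% of all tested genes), library 1 exceeded library 2 in both groups. Eno3, the muscle enolase, was at 19.4 and 19.3 RPKM in the knockout and at 20.1 and 22.3 RPKM in wild-type.

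Neighbouring pathways did not pass either, with 0 genes called in each list by limma. Of 10 tested genes for the pyruvate dehydrogenase complex and its kinases and phosphatases, 0 had a positive log2 change and 10 a negative one. The median was -0.05. Their median GC content was 46.3%, and OX40-knockout 1 was the lowest library for 5 (50%, against 42.7% of all tested genes). Pdk1, the kinase that shuts the complex, was at 116 and 110 RPKM in the knockout and 127 and 117 RPKM in wild-type. Mpc1, a subunit of the mitochondrial pyruvate carrier, was at 5.11 and 4.97 RPKM against 6.23 and 6.23 RPKM in wild-type. Of 16 citric acid cycle genes 6 were higher and 10 lower (median -0.04). Cs, which encodes citrate synthase, was at 89.7 and 90.8 RPKM in the knockout and at 83.1 and 83.8 RPKM in wild-type. Of 7 pentose phosphate genes 4 were higher and 3 lower (median 0.03), with Taldo1, which encodes transaldolase, at 149.7 and 138 RPKM against 131 and 137 RPKM in wild-type. Of 17 tested genes of the hexosamine, serine, glycerol and glycogen branches 8 were higher and 9 lower (median -0.02). Phgdh, the first enzyme of serine synthesis, was at 373 and 365 RPKM in the knockout and at 349 and 350 RPKM in wild-type. Of 7 genes of the gluconeogenic bypass only 3 were tested, all with a positive log2 change. Their median GC content was 56.5%, and OX40-knockout 1 was the highest library for all 3 (100%, against 36.9% of all tested genes). The part of that library's GC trend in these lists was not tested. Fbp2 and G6pc were listed at 0, and Pck2, the mitochondrial form of the carboxykinase, was at 41.8 and 40 RPKM in the knockout and 38.5 and 37.4 RPKM in wild-type.

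Targets of HIF-1 outside glycolysis had 9 of 18 genes higher and 9 lower, with 0 called and a median log2 change of -0.01. In 12 of the 18 (66.7%, against the same 23.6%), library 1 exceeded library 2 in both groups. Ddit4, an inhibitor of mTORC1, was at 165 and 169.5 RPKM in the knockout and 172 and 213 RPKM in wild-type, and the histone demethylase gene Kdm3a at 29 and 28.6 RPKM against 34.7 and 31.2 RPKM in wild-type. Among 16 regulators of glycolytic genes, 13 were higher and 3 lower (median 0.07), 0 were called, and OX40-knockout 1 was the highest library for 12 (75%, against 36.9% of all tested genes). Hif1a was at 189 and 129 RPKM in the knockout libraries and at 150.5 and 126 RPKM in wild-type, and Myc at 99.5 and 65.6 RPKM against 76.4 and 65 RPKM in wild-type (both picked out after their values were seen). Epas1, which encodes HIF-2α, was at 30 and 19.6 RPKM in the knockout and at 15.1 and 16.1 RPKM in wild-type, a log2 change of 0.61 (SE 0.22, limma adjusted p = 0.975). Txnip, which restrains glucose uptake, was at 136 and 140 RPKM in the knockout and at 143 and 166 RPKM in wild-type.

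**Figure D4:**
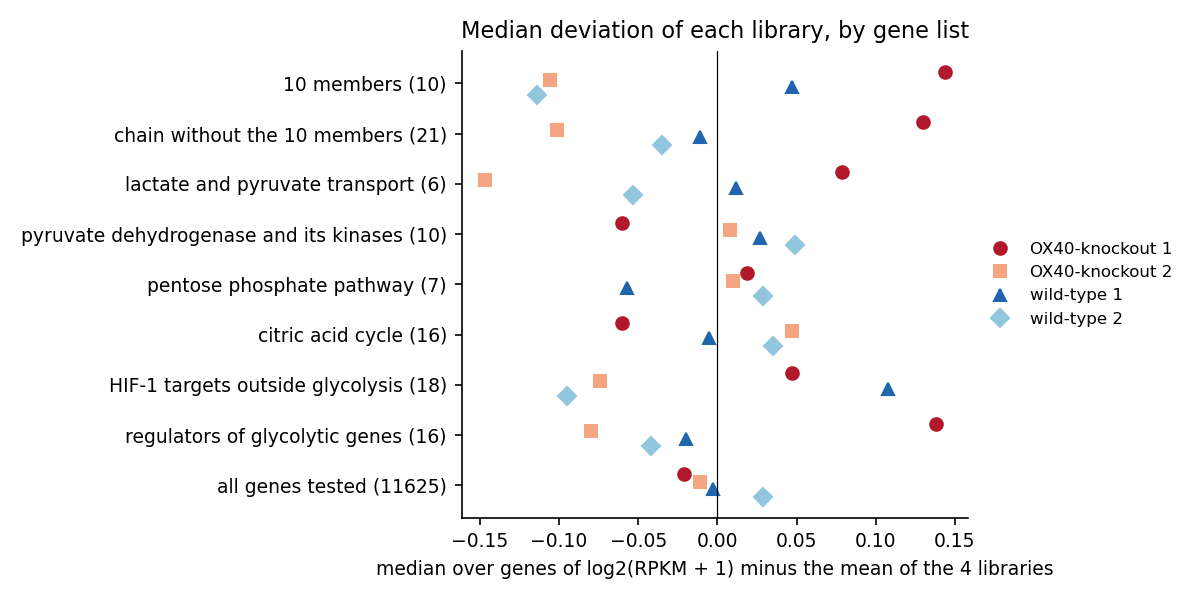
Median over the genes of each list of log2(RPKM + 1) minus the mean of the 4 libraries, with a point for each library and the tested genes counted in brackets. For the 10 members the medians are 0.14 and -0.11 in OX40-knockout 1 and 2 and 0.05 and -0.11 in wild-type 1 and 2, while for all genes they lie between -0.02 and 0.03.

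Among the genes whose pattern over the 4 libraries was most like that of Slc2a3, the member of widest range, were Clk1, Eps8, Neb and Ddit3, out of 8901 genes whose mean reached 5 RPKM. Likeness was the root mean square distance between the deviations of log2(RPKM + 1), which was 0.02 for Clk1 and between 0.07 and 0.08 for Eps8, Neb and Ddit3. Clk1, a kinase of splicing factors, was at 139 and 98.6 RPKM in OX40-knockout 1 and 2, and at 117 and 72.1 RPKM in wild-type 1 and 2. Ddit3, a transcription factor of the stress response, was at 60.7 and 37.6 RPKM in the knockout and at 49.5 and 31.9 RPKM in wild-type. With 4 libraries such likeness is a description only.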

How the data were processed

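The authors deposited a single table of RPKM values (reads scaled to length in kilobases and to library size) for 35275 Ensembl IDs. No unit stands in the header, and it was settled from the values: the smallest steps of single-transcript genes, at their annotated lengths, are worth 1 read and give a whole total per library. Per the submitters' processing notes, Bowtie 0.12.2 and the build mm8 were used. Per the labels' protocols, Trizol served for RNA extraction and a TruSeq kit for the libraries. Annotation, counting tool, treatment of reads with several matches and strand: not given in the sources used here. GENCODE vM21 (GRCm38), which names 34490 of the IDs, gave symbols, lengths and GC content. Many lengths behind the values match GENCODE vM21, so the build behind the table is uncertain, and coordinates are given only for RefSeq promoter windows.

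Reads were recovered as the smallest whole numbers in the ratio of the 4 values, within a relative tolerance of 2e-09, times the factor that gives a whole length nearest to the mean GENCODE length. This was found for 20719 of the 20996 genes above 0 (98.68%). In 49.4% of 15133 genes with several transcripts that length was within 0.51 base of the GENCODE mean. The sum of recovered reads was 102% to 102.1% of each total, so some genes may be several-fold too high. Members had between 6225 and 136890 reads per library, with counting errors (1 over the square root of the reads) between 0.27% and 1.27%.

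The test was limma's (3.58.1, R 4.3.3; moderated, trend on, two-sided, no block) on log2(RPKM + 1) of all 4 libraries, for the 11625 genes whose mean reached 1 RPKM, with Benjamini-Hochberg adjustment over all of them and a threshold of 0.05. Fold changes on this scale understate those of low genes. Lists were described by counts and medians with no set test. Members, lists, tests and naming rule were chosen with earlier results of these data known. All members were named. Of other genes, the rule took the leading gene and alternatives of each step and, in other lists, up to 2 genes of largest change with a mean of at least 5 RPKM and groups that do not overlap. Genes named as picked afterwards fall outside it, and some that it takes are not reported here. The fits and the recovery of reads were also run on simulated data, with outcomes not reported here. These data had independent noise, no library set apart and changes larger than those of the members. The recovery was given a length near the true one. They therefore do not bear on changes as small as the members' or on lengths far from the GENCODE mean. Alternatives were other pseudocounts, filters and scalings, recovered reads with limma-voom, a GC correction (lowess, span 0.3), a replicate block and leaving out each library. Other tools were matplotlib 3.10.9, pandas 2.3.3, numpy 2.4.6 and Python 3.11.15. Any pair of libraries differed by a chi-square of at least 12.6 per degree of freedom in recovered reads, which is more than counting noise, so none was treated as a library deposited again. This does not tell separate animals or cultures from technical repeats.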

Additional observations from a re-analysis of the deposited data

How the results depend on the processing

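No member passed the limma threshold under any of the 15 alternatives, and neither did any listed gene (0 in each). The lowest adjusted p among members was 0.0615, for Hk1 without OX40-knockout 2, and between 0.948 and 1 under the 14 others. Of 150 alternative values of the 10 log2 changes, 127 kept their sign and 23 turned it, all of them values that did not pass; causes were not tested. With the GC correction, with and without the replicate block, Slc2a1 was -0.03, Aldoa -0.068 and Pgk1 0.029. With quantile normalization Slc2a1 was -0.006 and Aldoa -0.07, and with median-of-ratios scaling Ldha was 0.012. When each library was left out in turn, the range was -0.099 to 0.124 for Slc2a1, 0.005 to 0.636 for Slc2a3, -0.061 to 0.573 for Hk1, -0.205 to 0.116 for Hk2, -0.075 to 0.203 for Pfkp, -0.072 to 0.112 for Aldoa, -0.014 to 0.451 for Gapdh, -0.133 to 0.084 for Pgk1, -0.122 to 0.338 for Pkm and -0.062 to 0.04 for Ldha. Leaving a library out leaves 1 in its group, assumed to vary like the others. The share of Pfkp in its step, knockout minus wild-type, was 1.25 percentage points with the GC correction and 0.866 with quantile normalization, against -0.482, and that of Aldoa -0.149 and -0.189, against 0.061. With the replicate block 0 members were called (lowest adjusted p = 0.995), and over all genes 5 were, against 0 without it. The differences between library 1 and 2 in the knockout and in wild-type correlated over 11625 genes (Pearson r = 0.47), but pairing by number is not stated in the labels. Counting errors of at most 1.27% do not limit the members' values, and 2 libraries a group do.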
